A study of Mus musculus with 18 samples.

Results

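TET triple knockout (TKO) mouse cells kept in germ cell medium with cytokines from day 2 to day 6 are described here, across all genes. The members are 4 of the 18 bulk RNA-seq libraries of the series, 2 from day 2 and 2 from day 6, chosen by their labels, and each result sets day 6 against day 2. Every cell comes from E14Tg2a, a mouse embryonic stem cell line, and the TKO genotype lacks the open reading frames of Tet1, Tet2 and Tet3 on all alleles after CRISPR/Cas9 excision. Embryonic stem cells were first turned into epiblast-like cells (EpiLCs) with Activin A and Fgf, and then aggregated in suspension in GK15 medium with BMP4, BMP8a, SCF, LIF and EGF, a mixture that turns wild-type EpiLCs into primordial germ cell-like cells (PGCLCs).

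The same 2 days without any of these cytokines were sampled in TKO aggregates (4 libraries), and the germline change of wild-type cells was taken from EpiLCs and day 6 PGCLCs with cytokines (4 libraries). Per the study, TKO aggregates were collected whole, while wild-type day 6 cells with cytokines were sorted for the surface proteins SSEA1 and CD61, so that the wild-type comparison sets sorted cells against unsorted ones. The series holds no wild-type aggregates at day 2 with cytokines, so the genotypes cannot be compared there. The TKO line descends from single cells that had lost the alleles, and per the study its differentiation assays used 1 clone per genotype. The study calls its RNA-seq replicates biological, while the labels do not say how they were kept apart, and p-values measure only the spread between these libraries.

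Primordial germ cells are the founders of eggs and sperm. In culture, BMP signals turn on the transcription factors Prdm1, Prdm14 and Tfap2c in EpiLCs, and pluripotency genes such as Nanog come back on. In the embryo, later germ cell genes (Dazl, Ddx4, Stra8) are mainly expressed once germ cells reach the gonad. TET enzymes oxidise methyl groups on the cytosines of CG pairs, a step by which DNA can lose methylation, and several late germline genes are held silent by methylation of their promoters. A small share of cultured stem cells transiently expresses genes of the 2-cell embryo, which the transcription factor Dux activates and among which the Zscan4 family is the best known.

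Between 11741889 and 16386003 counts were assigned to genes in the 4 libraries, and the ribosomal RNA precursor Rn45s took 31.7% to 37.3% of them. Replicates of either day differed by 24.2 to 24.3 times the variance of counting noise per gene, so none was a copy of another. Values are normalised counts, scaled by the size factors of DESeq2, and they compare 1 gene between libraries but not genes of different length with each other. The quasi-likelihood test of edgeR gave log2 fold changes (day 6 over day 2), standard errors (SE) and p-values, and the latter were Benjamini-Hochberg adjusted across all 16582 genes tested. A gene is said to have risen or fallen where that adjusted p is below 0.05. Each fit was repeated 4 times with 1 of the 4 libraries left out, where the lone library of that day is assumed to vary like the other groups.

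The targeted genes were checked in every library. Tet1 had 623 and 589.6 normalised counts at day 2 and 504 and 783 at day 6, against 12106 and 11503 in wild-type day 6 PGCLCs. Wild-type EpiLCs had 6232 and 6037. For Tet2 the values were 296 and 399.7 at day 2 and 187 and 293 at day 6, against 3114 and 4812 in wild-type day 6 PGCLCs and 187 and 125 in wild-type EpiLCs. Tet3 had 62.3 and 54.6 and then 63.9 and 86.1, against 171 and 330.1 in wild-type day 6 PGCLCs and 822 and 1019 in wild-type EpiLCs. All 4 TKO libraries were thus under these wild-type libraries for Tet1 and Tet3. For Tet2 they were under the wild-type PGCLCs but at the level of the wild-type EpiLCs or above it, which are of another stage. At the EpiLC stage itself TKO cells had 31.7 and 102 for Tet2, under both wild-type EpiLC libraries. Wild-type day 6 aggregates without cytokines had 1305 and 594.8 for Tet1, the latter within the range of the 4 TKO libraries. Counts cover whole genes, including exon parts outside the deleted reading frame, and do not show which part the remaining reads came from. Between day 2 and day 6 none of the 3 passed the test (edgeR adjusted p = 0.912 for Tet1, 0.542 for Tet2 and 0.606 for Tet3).

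From day 2 to day 6, 371 genes rose by a log2 fold change beyond 2 (2.24% of all genes tested) and 63 fell by as much (0.38%). Without a limit on size, 710 genes rose (4.28%) and 285 fell (1.72%), and the median log2 fold change over all genes was 0.03. Genes past the limit of 2 had low levels at day 2 if they rose and moderate ones if they fell: the median rose from 10.2 to 91.6 normalised counts over the 371 and dropped from 168 to 22.1 over the 63. Of the 371 genes, 190 had a mean of 50 or more normalised counts over the 4 libraries, and 91 were at or under 3 counts in each day 2 library, where a fold change depends on how low counts are handled. With 1 library left out, the 434 genes became 132 without replicate 1 of day 2, 283 without replicate 2 of day 2, 297 without replicate 1 of day 6 and 237 without replicate 2 of day 6. Of 88 changed genes whose log2 fold change is given in the text, 38 passed in all 4 of these fits.

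**Figure D1:**
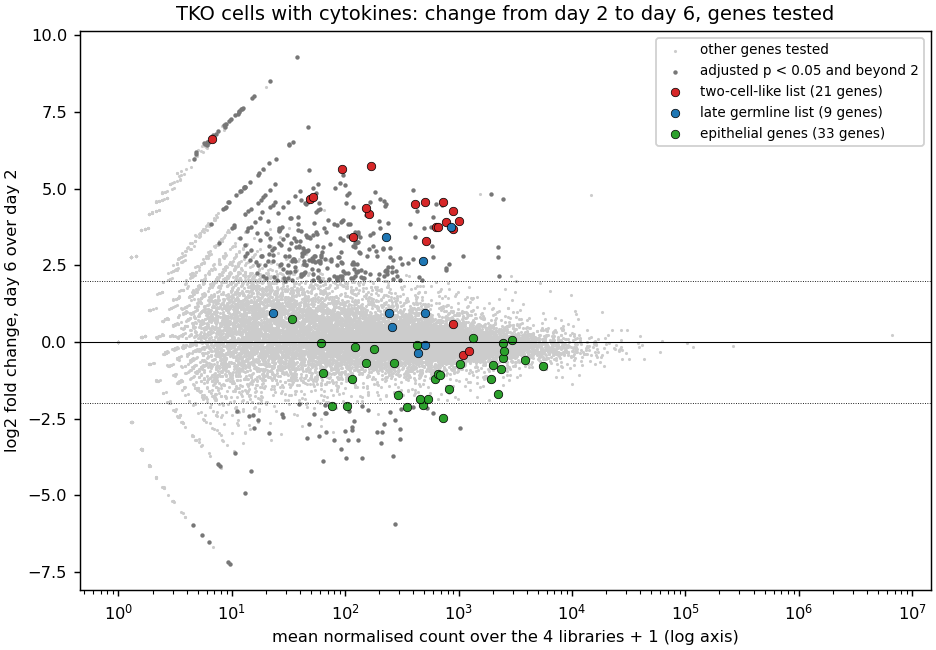
Each point is a gene, with its mean normalised count over the 4 libraries plus 1 on the horizontal log axis and its log2 fold change from day 2 to day 6 in TKO cells with cytokines on the vertical axis. Colours mark a list of 2-cell-stage genes, whose median lies at 4.16, and epithelial genes, none of which rose. They also mark the late germline list, of which 3 of 9 genes rose and which includes the early marker Dppa3.

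Genes of the 2-cell embryo and a few late germline genes were among those that rose. Promoters of 4 of them are shown, 300 bases each from 250 before to 50 after the annotated start, because methylated CG pairs are what TET enzymes act on and Zscan4c and Zscan4d are close copies. Sequences are RefSeq's for GRCm38.p6 (mm10), 5′ to 3′ on the gene's strand, in lower case with every CG pair in capitals. They lie at chr7:11005495-11005794 on the plus strand (Zscan4c), chr7:11166099-11166398 on the minus strand (Zscan4d), chr17:50293571-50293870 on the minus strand (Dazl) and chr6:34920698-34920997 on the plus strand (Stra8).

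Zscan4c: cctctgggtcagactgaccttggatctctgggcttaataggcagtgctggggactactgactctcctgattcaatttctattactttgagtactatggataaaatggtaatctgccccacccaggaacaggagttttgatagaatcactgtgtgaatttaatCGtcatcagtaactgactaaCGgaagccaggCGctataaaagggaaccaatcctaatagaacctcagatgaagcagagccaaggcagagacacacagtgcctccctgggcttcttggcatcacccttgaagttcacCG
Zscan4d: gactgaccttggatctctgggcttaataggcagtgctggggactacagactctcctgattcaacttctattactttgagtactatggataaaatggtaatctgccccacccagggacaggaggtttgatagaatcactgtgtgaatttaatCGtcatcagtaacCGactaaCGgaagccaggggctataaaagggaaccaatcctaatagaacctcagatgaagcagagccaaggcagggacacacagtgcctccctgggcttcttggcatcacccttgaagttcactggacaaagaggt
Dazl: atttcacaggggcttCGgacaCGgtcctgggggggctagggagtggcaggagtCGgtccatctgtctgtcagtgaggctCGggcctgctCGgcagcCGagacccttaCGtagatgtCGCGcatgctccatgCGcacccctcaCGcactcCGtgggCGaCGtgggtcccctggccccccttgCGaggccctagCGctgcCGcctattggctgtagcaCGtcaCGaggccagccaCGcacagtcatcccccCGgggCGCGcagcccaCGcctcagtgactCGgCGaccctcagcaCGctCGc
Stra8: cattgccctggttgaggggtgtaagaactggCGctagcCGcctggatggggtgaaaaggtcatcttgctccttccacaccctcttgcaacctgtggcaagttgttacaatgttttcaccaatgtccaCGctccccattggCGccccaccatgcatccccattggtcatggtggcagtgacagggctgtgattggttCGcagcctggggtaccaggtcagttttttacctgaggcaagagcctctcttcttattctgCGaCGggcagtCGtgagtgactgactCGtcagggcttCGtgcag

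The windows of Zscan4c and Zscan4d matched at 281 of 289 aligned bases (97.2%). They held 4 and 3 CG pairs, as few as the lowest 38.3% and 31.9% of all 27025 promoters in the table, while Stra8 held 10 and Dazl 28, a number that 87.3% of promoters do not exceed. The median was 7 over all promoters and 19 over those of genes tested here. The letters TATAAA, searched on both strands, stood in both Zscan4 windows and in neither of the other two, and 14.2% of all promoters and 7.59% of those of genes tested held them. The window of Zfp352, another 2-cell-stage gene, held 2 CG pairs and not these letters. A promoter was found for 264 of the 371 genes that rose beyond 2 (71.2%), too few to compare these genes with all others. Methylation of these windows was not measured in the files used here.

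Genes of the 2-cell embryo rose together. Of 23 genes on this list 21 were tested, and 17 of them rose, each by a log2 fold change beyond 2, against 2.24% of all genes tested. None fell, and the median log2 fold change was 4.16, or 3.94 with genes at 3 counts or fewer at day 2 set to the bound that 3 counts allow. In bulk aggregates a larger share of cells in such a state and more RNA per cell cannot be told apart.

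Dux encodes the homeodomain factor at the top of this programme. It held 3 counts in each day 2 library, 3.4 and 3.72 normalised, and 108 and 76.9 normalised counts at day 6, a log2 fold change of 4.65 (SE 0.69, edgeR adjusted p = 0.00167). Both day 2 libraries were thus near the detection limit, and both day 6 libraries were well above it. Zscan4c and Zscan4d are 2 copies of a gene whose zinc finger protein acts at telomeres. Zscan4c had 24.9 and 91.9 normalised counts at day 2 and 1376 and 1389 at day 6, and its log2 fold change was 4.58 (SE 0.53, edgeR adjusted p = 0.000238). Zscan4d had 48.7 and 128 and then 1731 and 1690.0, a log2 fold change of 4.28 (SE 0.38, edgeR adjusted p = 5.15e-05). In both copies the lower of the day 2 libraries was replicate 1, and the day 6 libraries were almost equal. Dux, Zscan4c and Zscan4d passed in each fit without 1 of the 4 libraries, with log2 fold changes of 3.90 to 5.79 for Zscan4c and 3.73 to 5.14 for Zscan4d.

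The 5 Zscan4 genes counted were summed as a family after values were seen. TKO EpiLCs had 0 and 11 normalised counts in this sum, the day 2 libraries 173 and 433 and the day 6 libraries 6041 and 5633. Wild-type day 6 PGCLCs had 48 and 91.4. Fragments that map to several places were left out of the counts, so the value of a single Zscan4 copy is uncertain, and the sum covers only what was unique to a copy.

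Usp17le, from a family of deubiquitinases, had the smallest SE among the members that rose, with 114 and 132 normalised counts at day 2 and 1789.5 and 1986 at day 6, for a log2 fold change of 3.94 (SE 0.25, edgeR adjusted p = 1.94e-06). All 5 Usp17l genes, a family chosen after values were seen, rose, and their summed level went from 309 and 482 to 5293 and 5797. Zfp352, a zinc finger gene of the early embryo, had 0 and 7.45 and then 169.7 and 196, with a log2 fold change of 5.63 (SE 0.82, edgeR adjusted p = 0.00198). Tcstv3 lies in a cluster that is known for its expression at the 2-cell stage. It had 2.27 and 9.93 normalised counts at day 2 and 381 and 276 at day 6, and its log2 fold change of 5.75 (SE 0.91, edgeR adjusted p = 0.00244) was the highest among called genes with a mean of 50 or more. Usp17le and Zfp352 passed in each fit without 1 of the 4 libraries, with log2 fold changes of 4.59 to 10.65 for Zfp352. Tcstv3 was no longer called without replicate 1 of day 2 (highest edgeR adjusted p = 0.0581). Tcstv3 had log2 fold changes of 5.02 to 7.11 in these fits.

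The 9 other names in that top 10 were Zfp352, BC080695 (5.45), A530040E14Rik (5.17), Gm11487 (5.15), AF067061 (5.13), Pramef6 (5.03), BC147527 (5.01), Gm4971 (4.94) and Pramef25 (4.88), each with its log2 fold change. Pramef genes encode leucine-rich repeat proteins, and the others are mostly unnamed reading frames. Day 2 values of these 9 ranged from 0 to 37.2 normalised counts and day 6 values from 68.9 to 991. BC080695, A530040E14Rik, AF067061, Pramef6, BC147527, Gm4971 and Pramef25 passed in each fit without 1 of the 4 libraries, with log2 fold changes of 4.09 to 10.73 for AF067061, 4.42 to 6.19 for Pramef6, 4.33 to 5.92 for Gm4971 and 4.34 to 5.69 for Pramef25. Gm11487 was no longer called without replicate 1 of day 2 or replicate 1 of day 6 (highest edgeR adjusted p = 0.0754). Gm11487 had log2 fold changes of 4.12 to 9.93 in these fits.

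Tdpoz3 and Tdpoz4 encode proteins with TRAF and POZ domains. Tdpoz3 had 2.27 and 4.96 and then 113 and 83.8 normalised counts, a log2 fold change of 4.74 (SE 0.74, edgeR adjusted p = 0.00243). Tdpoz4 had 14.7 and 24.8 and then 240.3 and 187, with a log2 fold change of 3.43 (edgeR adjusted p = 0.00425). The 4 tested members that did not pass were Tcstv1, Zscan10, Dppa2 and Dppa4. Tcstv1 was at 0 in both day 2 libraries and had 13.4 and 9.18 normalised counts at day 6, which makes it at least 3.18-fold higher against a floor of 3 counts per library (edgeR adjusted p = 0.0999). Dppa2 and Dppa4 are paired nuclear factors that activate Dux in stem cells. Dppa2 had 751 and 681 normalised counts at day 2 and 1019.9 and 1126 at day 6 with a log2 fold change of 0.59 (edgeR adjusted p = 0.198), and Dppa4 had 1491 and 1208 and then 1156 and 1063 with −0.28 (edgeR adjusted p = 0.645). Zscan10, a pluripotency factor, had a log2 fold change of −0.42 (edgeR adjusted p = 0.314). Tdpoz3 and Tdpoz4 were no longer called without replicate 1 of day 2 (highest edgeR adjusted p = 0.059 and 0.081). Tdpoz3 had log2 fold changes of 4.26 to 5.37 in these fits. Without replicate 1 of day 2, 14 of the list rose in place of 17.

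**Figure D2:**
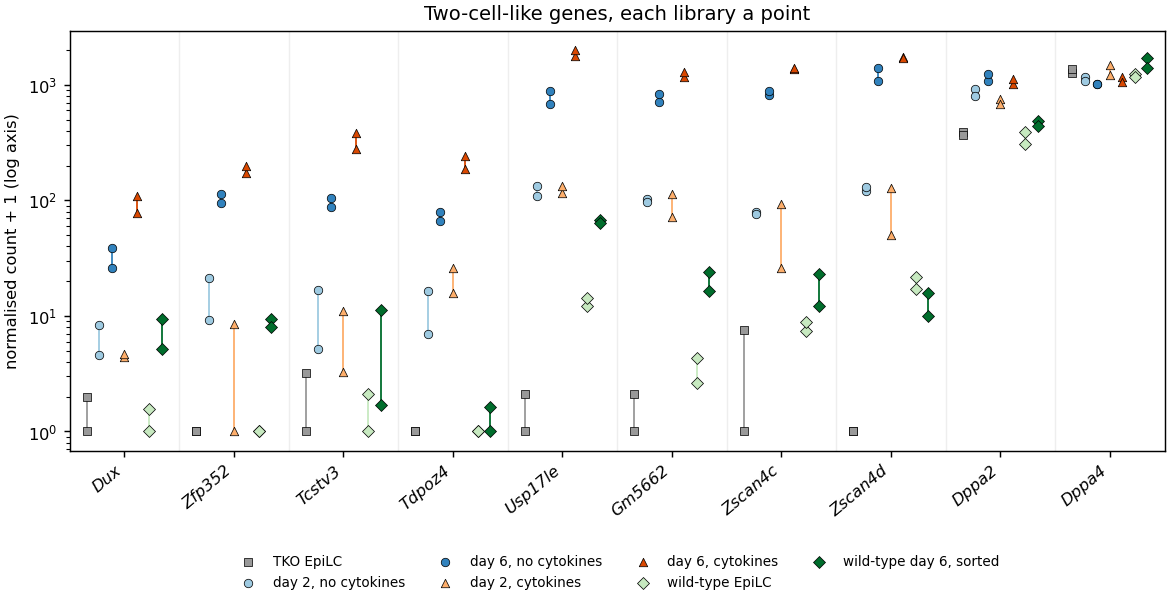
Normalised counts plus 1 of 10 genes of the 2-cell-stage list in each library (points) of 7 conditions, with genes side by side on a shared log axis. In TKO cells with cytokines Dux went from 3.4 and 3.72 at day 2 to 108 and 76.9 at day 6, while Dppa2 and Dppa4 did not pass the test.

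Some further genes of the same early stage were likewise looked at after their values were seen. Nelfa, a subunit of the negative elongation factor, which halts RNA polymerase near the start of genes, had 856 and 804 normalised counts at day 2 and 3601 and 3745 at day 6, with a log2 fold change of 2.15 (SE 0.13, edgeR adjusted p = 1.02e-06). Its level at day 2 was close to the 877 and 809 of TKO EpiLCs, and both day 6 libraries lay far above all of these. Eif4a3l1, a copy of an RNA helicase gene, had 114 and 150.2 and then 3779 and 3636, and Gm21761 had 104 and 269 and then 4644 and 4839. Their log2 fold changes were 4.81 (SE 0.41, edgeR adjusted p = 3.13e-05) for Eif4a3l1 and 4.67 (edgeR adjusted p = 2.97e-05) for Gm21761. All 9 genes of a group resembling Eif1a rose, and their sum went from 354 and 838 to 9153 and 9475. Of 9 Pramef and Pramel genes tested 4 rose, against 4.28% of all genes. Among them was Pramel6, with 119 and 90.6 normalised counts at day 2 and 670.4 and 693 at day 6 (edgeR adjusted p = 0.00173). Nelfa, Eif4a3l1 and Gm21761 passed in each fit without 1 of the 4 libraries, with log2 fold changes of 4.13 to 5.51 for Gm21761.

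Several of these genes stand side by side in the genome. Of the 369 genes that rose beyond 2 and have a position in GRCm38.p6, 38 lay in 6 runs of at least 4 such genes with gaps of at most 500 kb. Each run was built from rising genes and starts and ends at such a gene, which by itself raises the share of rising genes within it. Over all genes tested 2.24% rose beyond 2. How many runs genes placed at random would form was not tested. On chromosome 12 (chr12:87514316-88321762) 9 of 9 genes tested rose, among them the Eif1a-like Gm5662, Gm8300, Gm2016 and Gm2022. On chromosome 13 (chr13:119827961-120318261) 8 of 9 rose, including Tcstv3, Gm21761, AF067061 and BC147527. All 5 tested genes of the Zscan4 run rose (chr7:10794241-11402318), as did 7 of 10 around Pramef6 and Pramef25 on chromosome 4 (chr4:143347076-144364419). The other two runs were sparse, with 5 of 44 genes on chromosome X (chrX:73214321-74481562) and 4 of 35 on chromosome 17 (chr17:35025959-35643695). Where members of a run are close copies of each other, their values share the uncertainty given for Zscan4, and how alike they are was not tested.

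Late germline genes rose in part. The list holds 9 genes that the study names. It calls Dazl, Stra8, Taf7l, Spesp1 and Ddx4 late markers and Dppa3 an early one, and links Mov10l1, Mael and Wt1 to germline or gonad development. The choice was made on these samples and is no independent evidence of a direction. Of the 9 genes 3 rose, each beyond 2, against 2.24% of all genes, and none fell. Dazl encodes an RNA-binding protein that germ cells need once they reach the gonad. It had 55.5 and 186 normalised counts at day 2 and 906 and 2290.5 at day 6, and its log2 fold change was 3.73 (SE 0.50, edgeR adjusted p = 0.000525). Replicate 1 was the lower library on both days, and the lower day 6 library was still above the higher day 2 library.

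Stra8, which germ cells switch on as they enter meiosis, had 83.9 and 182 normalised counts at day 2 and 796 and 859.9 at day 6, a log2 fold change of 2.64 (SE 0.42, edgeR adjusted p = 0.00236). Spesp1, a gene of the sperm's equatorial segment, had 31.7 and 47.2 and then 389.8 and 451, a log2 fold change of 3.42 (SE 0.45, edgeR adjusted p = 0.00049). Both were nearly absent from TKO EpiLCs, at 5.95 and 9.89 normalised counts for Stra8 and 0.992 and 2.2 for Spesp1. Dazl was already present in TKO EpiLCs, at 100 and 156 normalised counts, between its day 2 values. In wild-type day 6 PGCLCs Stra8 had 249.6 and 237, Spesp1 18.8 and 26.4 and Dazl 583 and 631, values under both TKO day 6 libraries for each gene. Dazl and Spesp1 passed in each fit without 1 of the 4 libraries, with log2 fold changes of 2.91 to 4.85 for Dazl. Stra8 was no longer called without replicate 1 of day 2 (highest edgeR adjusted p = 0.0526). Stra8 had log2 fold changes of 2.17 to 3.31 in these fits.

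The other 6 did not pass the test. Ddx4, an RNA helicase of germ cell granules, had 460.1 and 520.1 and then 306 and 464 normalised counts, with a log2 fold change of −0.34 (edgeR adjusted p = 0.575). Mov10l1, a helicase of the piRNA pathway, had 282 and 417 and then 556 and 782, with 0.94 (edgeR adjusted p = 0.0984). For Mael, another piRNA factor, the values were 477 and 569.7 and then 434 and 549. Taf7l, a germ cell subunit of TFIID, had 173 and 263 and then 234 and 371, and Wt1, which also marks gonadal somatic cells, had 19.3 and 11.2 and then 13.4 and 43.6, so that the days overlapped in each of these 3. Dppa3, which marks early germ cells, had 197 and 137 normalised counts at day 2 and 229 and 411 at day 6, with a log2 fold change of 0.95 (edgeR adjusted p = 0.171).

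Wider lists of germ cell genes differed in how many members passed, beside the 4.28% of all genes that rose and the 1.72% that fell. Of 36 meiosis genes tested only Stra8 rose and none fell, with a median log2 fold change of 0.06. Among 23 genes of the piRNA pathway, small RNAs that silence transposons, none rose and Tdrd12 fell, from 768 and 847 to 422 and 356 normalised counts (−1.05, edgeR adjusted p = 0.0404), and the median was 0.16. Asz1 of that pathway was at 0 in both day 2 libraries and at 1.68 and 16.1 at day 6 without passing (edgeR adjusted p = 0.0631). Of 25 genes for germ cell RNA-binding and testis-expressed proteins 5 rose, with a median of 0.85 over the list. Besides Dazl these 5 were Sohlh2, a transcription factor of early spermatogonia and oocytes, Tex19.2, the dipeptidase gene Dpep3 and the mitochondrial carrier gene Slc25a31. Sohlh2 had 176 and 248 normalised counts in TKO EpiLCs, 103 and 176 at day 2 and 822 and 846 at day 6. Its log2 fold change was 2.58 (SE 0.29, edgeR adjusted p = 0.000128). Dpep3 went from 6.8 and 13.7 to 72.3 and 90.7 (edgeR adjusted p = 0.0122), Tex19.2 from 35.1 and 49.6 to 193 and 220.4 with 2.29 (edgeR adjusted p = 0.00746), and Slc25a31 from 31.7 and 67 to 141 and 238 with 1.95 (edgeR adjusted p = 0.025). Of 5 Rhox homeobox genes tested, a cluster of reproductive genes on chromosome X, 2 rose. Rhox5 had 89.5 and 98.1 and then 442 and 493 (2.32, edgeR adjusted p = 0.00049), and Rhox1 had 6.8 and 7.45 and then 33.6 and 65.4 (2.80, edgeR adjusted p = 0.0161). Sohlh2 and Rhox5 passed in each fit without 1 of the 4 libraries. Tex19.2 and Slc25a31 were no longer called without replicate 1 of day 2 or replicate 2 of day 6 (highest edgeR adjusted p = 0.13 and 0.264), Rhox1 without either day 2 library or replicate 2 of day 6 (0.164), and Tdrd12 without any 1 of the 4 libraries (0.229). Slc25a31 had log2 fold changes of 1.49 to 2.58 in these fits.

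Among genes of germ cell specification and early germ cells a few fell. None of 19 PGC specification and early PGC genes rose and 3 fell, against 1.72% of all genes, with a median log2 fold change of 0.00. All of the PGCLC markers checked were present in each of the 4 libraries. Prdm14 had 817 and 962 normalised counts at day 2 and 1080.4 and 1235 at day 6, with a log2 fold change of 0.38 (SE 0.33, edgeR adjusted p = 0.555). Tfap2c had 2007 and 2230.5 and then 1425 and 1643, with −0.46 (SE 0.23, edgeR adjusted p = 0.251). Prdm1 had 362 and 276 and then 111 and 208, with −0.98 (SE 0.34, edgeR adjusted p = 0.105). None of the 3 transcription factors passed the test, though for each of them the day 2 and day 6 libraries did not overlap, as was the case for 50% of all genes tested. In wild-type day 6 PGCLCs Prdm1 had 1899.7 and 1755, above all 4 TKO libraries.

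Nanog had 6090.4 and 7564 normalised counts at day 2 and 10169 and 9284 at day 6, a log2 fold change of 0.51 (edgeR adjusted p = 0.278). Kit, the receptor of SCF, had 800.1 and 1746 and then 2114 and 3369 with 1.11 (edgeR adjusted p = 0.193), and Itgb3, which encodes the sorting marker CD61, had 144 and 206 and then 321 and 393 with 1.03 (edgeR adjusted p = 0.177). For Pou5f1 the log2 fold change was −0.50 (edgeR adjusted p = 0.538) and for the RNA-binding germ cell factor Nanos3 −1.22 (edgeR adjusted p = 0.0965).

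Lin28a, which blocks the maturation of let-7 microRNAs, fell from 4167 and 2969 to 1806 and 883 normalised counts, a log2 fold change of −1.40 (SE 0.30, edgeR adjusted p = 0.0127). Ifitm3, a membrane protein of early germ cells also known as Fragilis, had 2077 and 1903 and then 924 and 876, and its relative Ifitm1 had 946 and 803 and then 445 and 457. Both fell, by a log2 fold change of −1.14 (edgeR adjusted p = 0.0325) for Ifitm3 and −0.95 (edgeR adjusted p = 0.0117) for Ifitm1. Lin28a was no longer called without replicate 1 of day 2 or replicate 2 of day 6 (highest edgeR adjusted p = 0.152), Ifitm3 without any 1 of the 4 libraries (0.186), and Ifitm1 without replicate 1 of day 2 or either day 6 library (0.137). Lin28a had log2 fold changes of −2.02 to −0.98 in these fits.

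**Figure D3:**
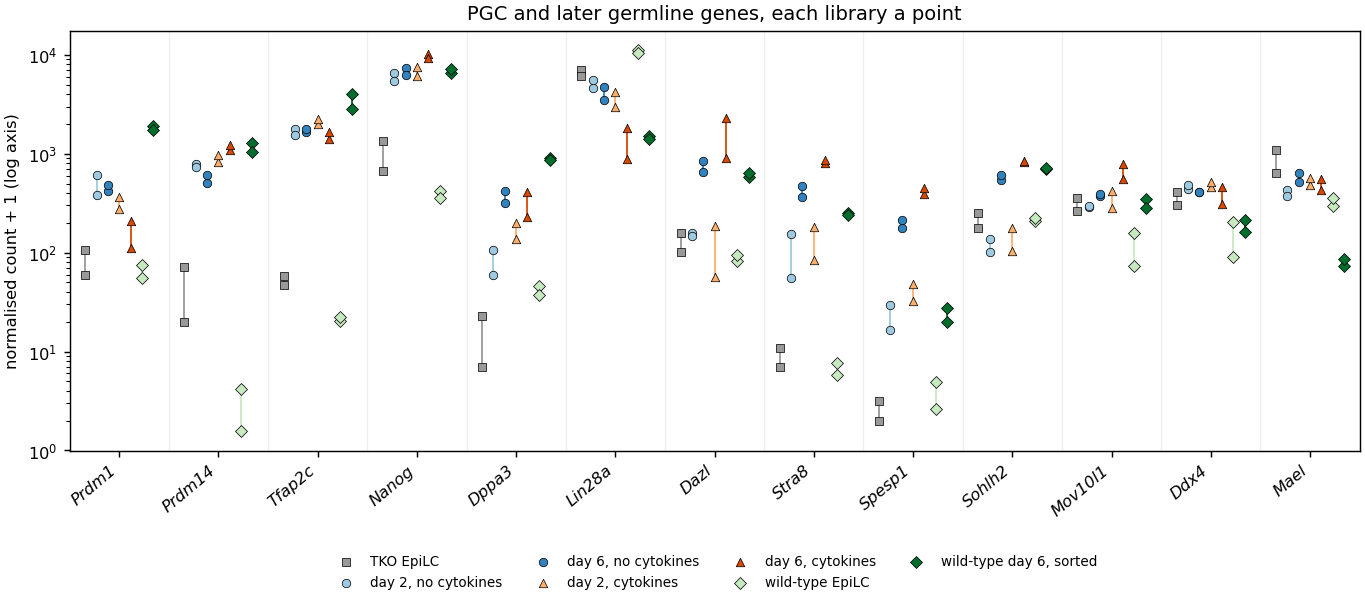
Normalised counts plus 1 of 13 germ cell genes in each library (points) of 7 conditions, with genes side by side on a shared log axis. With cytokines Dazl, Stra8, Spesp1 and Sohlh2 were higher at day 6 than at day 2 in TKO cells, while Prdm14, Tfap2c and Ddx4 did not pass the test.

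Naive pluripotency genes passed the test about as often as all genes, while several genes of the formative and primed states fell further below their EpiLC levels. Of 20 naive genes 1 rose and none fell, against 4.28% and 1.72% of all genes, with a median log2 fold change of 0.41. The riser was Tcl1, a cofactor of the kinase Akt, with 449.9 and 510.1 normalised counts at day 2 and 1526 and 1287 at day 6, for a log2 fold change of 1.55 (SE 0.29, edgeR adjusted p = 0.00517). Among 22 formative and primed genes none rose and 5 fell, against 1.72% of all genes, with a median of −0.45.

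Fgf5, the growth factor that marks the epiblast at implantation, had 2697 and 1665 normalised counts in TKO EpiLCs, 308 and 65.8 at day 2 and 10.1 and 16.1 at day 6. Its day 2 libraries lay far apart, replicate 1 being the higher, and both were above day 6, with a log2 fold change of −3.78 (SE 0.67, edgeR adjusted p = 0.0035). Dnmt3b, the main de novo DNA methyltransferase of the epiblast, had 18014 and 16865 in TKO EpiLCs, 3801 and 2932 at day 2 and 1136 and 914 at day 6, with a log2 fold change of −1.71 (SE 0.28, edgeR adjusted p = 0.00207). It was the only gene among 28 DNA methylation enzymes and cofactors that changed, the Tet genes included, and the median of that list was −0.10. Lef1, a nuclear effector of Wnt signals, had 263 and 133 and then 60.5 and 44.8 with −1.93 (edgeR adjusted p = 0.029). Pou3f1, a primed-state factor also known as Oct6, had 235 and 117 and then 68.9 and 65.4 with −1.39 (edgeR adjusted p = 0.0217). Dnmt3b passed in each fit without 1 of the 4 libraries. Tcl1 and Fgf5 were no longer called without replicate 1 of day 2 (highest edgeR adjusted p = 0.0973 and 0.0671), and Lef1 and Pou3f1 without replicate 1 of day 2 or either day 6 library (0.296 and 0.318). Fgf5 had log2 fold changes of −4.49 to −2.28 in these fits.

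Grhl2 belongs to the same list and maintains epithelial gene expression. It had 877 and 799 normalised counts at day 2 and 202 and 258 at day 6, a log2 fold change of −1.86 (SE 0.22, edgeR adjusted p = 0.000238). A family of 33 genes of epithelial junctions and epithelial factors was then drawn up after this and other values were seen, and it is described without a test of its own. Of its members 17 fell (1.72% of all genes did), 5 of them beyond 2 (0.38%), none rose, and the median log2 fold change was −0.89. Ap1m2, an epithelium-specific subunit of the sorting adaptor AP-1, had 1166 and 1314 and then 193 and 249, with a log2 fold change of −2.48 (SE 0.36, edgeR adjusted p = 0.00103). The splicing factors Esrp1 and Esrp2 set epithelial isoforms. Esrp2 had 534 and 611 and then 149.5 and 113 with −2.13 (edgeR adjusted p = 0.00154), and Esrp1 had 1225 and 1230.1 and then 294 and 548 with −1.53 (edgeR adjusted p = 0.00425).

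Some genes of cell junctions were among them. The claudins, too, were grouped after values were seen. Of 13 claudins tested Cldn7, Cldn6 and Cldn4 fell, against 1.72% of all genes, and 10 did not pass. The tight junction gene Cldn7 had 1213 and 1293 normalised counts at day 2 and 307 and 362 at day 6, with a log2 fold change of −1.90 (SE 0.28, edgeR adjusted p = 0.00103). Cdh1, which encodes E-cadherin, had 6828 and 7347 and then 3544 and 4626, a smaller change of −0.79 (SE 0.20, edgeR adjusted p = 0.0323). Cldn6 and Cldn4, both claudins of tight junctions, had log2 fold changes of −1.86 (edgeR adjusted p = 0.00144) and −1.13 (edgeR adjusted p = 0.0102) respectively. Among further members Lad1, of the basement membrane anchor, had −2.04 (edgeR adjusted p = 0.00163), the membrane protein gene Prom2 had −2.09 (edgeR adjusted p = 0.0141), and the keratin gene Krt19 had −1.85 (edgeR adjusted p = 0.00165). Epcam did not pass, with 3118 and 2998 and then 1338 and 1959.8 normalised counts and −0.89 (edgeR adjusted p = 0.21). Tjp1, the tight junction scaffold ZO-1, had 2483 and 2433 and then 2141 and 2707, values that overlapped between the days. Grhl2, Ap1m2, Esrp2, Cldn7, Cldn6, Lad1 and Krt19 passed in each fit without 1 of the 4 libraries. Esrp1 was no longer called without replicate 1 of day 6 (highest edgeR adjusted p = 0.0503), Cdh1 and Cldn4 without any 1 of the 4 libraries (0.194 and 0.0903), and Prom2 without replicate 1 of day 2 or either day 6 library (0.142).

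Zeb1, a repressor of epithelial genes, moved the other way, from 39.7 and 53.4 to 408 and 348 normalised counts, a log2 fold change of 3.03 (SE 0.47, edgeR adjusted p = 0.00144). Snai1, which represses Cdh1, had 46.5 and 38.5 and then 178 and 124 and also rose (1.83, edgeR adjusted p = 0.0458). These were 2 of 8 mesenchymal transition genes tested, against 4.28% of all genes that rose. That family was also chosen after values were seen. Vim and Fn1, which mesenchymal cells express, did not pass, with log2 fold changes of 0.96 (edgeR adjusted p = 0.18) for Vim and 0.76 (edgeR adjusted p = 0.238) for Fn1. N-cadherin's gene Cdh2 had 68 and 29.8 normalised counts at day 2 and 118 and 34.4 at day 6, so that the days overlapped. Zeb1 passed in each fit without 1 of the 4 libraries. Snai1 was no longer called without any 1 of the 4 libraries (highest edgeR adjusted p = 0.221).

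Among 22 basement membrane genes 4 rose and 1 fell, against 4.28% and 1.72% of all genes. Col4a1 and Col4a2 encode the chains of the main type IV collagen and are transcribed from a shared promoter. Col4a1 had 409 and 523 normalised counts at day 2 and 3710.1 and 4186 at day 6, with a log2 fold change of 3.09 (SE 0.40, edgeR adjusted p = 0.000437). Col4a2 had 209 and 334 and then 1900.4 and 1886, with 2.81 (edgeR adjusted p = 0.00243). Nid1, the linker between laminin and collagen IV, had 483 and 662 and then 3438 and 4274, with 2.76 (SE 0.36, edgeR adjusted p = 0.00049). Lama1, the laminin chain of the early embryo, had 164 and 330.2 and then 751 and 770.4 with 1.63 (edgeR adjusted p = 0.0238), and Lamb3, a laminin chain of epithelia, fell from 82.7 and 102 to 15.1 and 39 with −1.73 (edgeR adjusted p = 0.0487). This family, too, was chosen after values were seen. Col4a1 and Nid1 passed in each fit without 1 of the 4 libraries. Col4a2 was no longer called without replicate 1 of day 2 (highest edgeR adjusted p = 0.0682), Lama1 without replicate 1 of day 2 or either day 6 library (0.264), and Lamb3 without any 1 of the 4 libraries (0.239). Lama1 and Lamb3 had log2 fold changes of 1.20 to 2.22 and −2.60 to −1.24 in these fits.

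**Figure D4:**
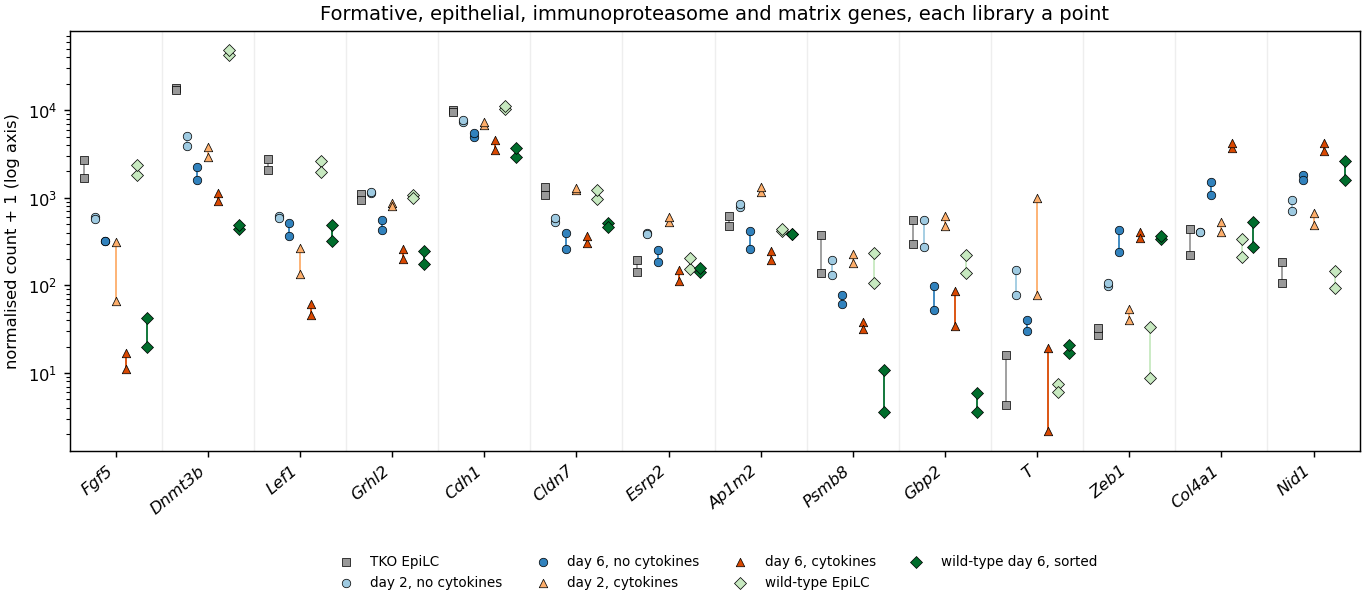
Normalised counts plus 1 of 14 genes of the primed state, epithelium, immunoproteasome and matrix in each library (points) of 7 conditions, with genes side by side on a shared log axis. With cytokines Grhl2, Cldn7, Esrp2 and Ap1m2 were lower at day 6 than at day 2 in TKO cells, whereas Zeb1, Col4a1 and Nid1 were higher.

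Some genes of the immunoproteasome and of interferon responses fell too. In a family of 23 tested genes, again chosen after values were seen, 8 fell (against 1.72% of all genes), 5 of them beyond 2 (0.38%), 15 did not pass, none rose, and the median log2 fold change was −1.28. Psmb8 and Psmb10 encode proteasome subunits that shape peptides for antigen display. Psmb8 had 224 and 180.0 normalised counts at day 2 and 37 and 31 at day 6, with a log2 fold change of −2.57 (SE 0.62, edgeR adjusted p = 0.0239). Psmb10 had 474 and 349 and then 85.7 and 83.8, with −2.27 (SE 0.39, edgeR adjusted p = 0.00301). Irf1, a transcription factor that induces both, had 1588 and 1012 and then 497 and 454, with −1.45 (SE 0.24, edgeR adjusted p = 0.00258).

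Gbp2, an interferon-induced GTPase, had 619.9 and 470.4 normalised counts at day 2 and 33.6 and 85 at day 6, with a log2 fold change of −3.16 (SE 0.60, edgeR adjusted p = 0.00636). Its neighbour Gbp2b had 392 and 354 and then 40.3 and 55.1, with −2.95 (edgeR adjusted p = 0.00779). The peptide transporter gene Tap2 and the proteasome activator gene Psme2 had −1.64 (edgeR adjusted p = 0.0105) and −1.23 (edgeR adjusted p = 0.0395). B2m, the light chain of class I antigens, had 232 and 149 and then 232 and 154, so that the days overlapped. The list of interferon-stimulated genes as a whole did not move in 1 direction: 3 of 26 tested members fell and none rose, with a median of 0.04. Besides Gbp2 these were Samd9l, with 271 and 428 and then 133 and 81.5 (−1.71, edgeR adjusted p = 0.0154), and the chemokine gene Cxcl10, with 24.9 and 11.2 and then 1.68 and 1.15 (edgeR adjusted p = 0.0363), where each day 6 library held 1 count. Psmb10 passed in each fit without 1 of the 4 libraries. Irf1 was no longer called without replicate 1 of day 2 (highest edgeR adjusted p = 0.0581), Psmb8 and Psme2 without any 1 of the 4 libraries (0.174 and 0.28), Gbp2 without replicate 1 of day 2 or replicate 1 of day 6 (0.0659), Gbp2b and Tap2 without replicate 1 of day 2 or either day 6 library (0.0709 and 0.144), and Samd9l without replicate 2 of day 2 or replicate 2 of day 6 (0.166). Gbp2 had log2 fold changes of −4.01 to −2.68 in these fits.

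Unsorted aggregates can hold cells other than PGCLCs, and marker lists of 6 such cell types were examined. Summed normalised counts of the mesoderm list were 2259 and 1048 at day 2 and 1613 and 1331 at day 6. The endoderm list had 612 and 772 and then 1993 and 2037, and the neural list 3996 and 3901 and then 7429 and 4396. For trophoblast and simple keratins the sums were 8598 and 7728 and then 3883 and 3985, for blood and endothelium 885 and 793 and then 1317 and 1279, and for gonadal somatic cells 552 and 323 and then 543 and 544. Endoderm, neural and blood and endothelium sums were thus higher in both day 6 libraries than in either day 2 library, and trophoblast sums were lower. Wild-type day 6 PGCLCs, sorted per the study, had 1558 and 1984 in the endoderm sum and 2977 and 2876 in the blood and endothelium sum. Their neural sums were 1530 and 1582 and their trophoblast sums 1199 and 1526. A higher endoderm or blood and endothelium sum therefore does not by itself show cells other than PGCLCs. The part of such cells in the changes above was not tested.

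The primitive streak gene T (Brachyury) had the largest fall of any called gene with a mean of 50 or more. It had 999.6 and 77 normalised counts at day 2 and 18.5 and 1.15 at day 6, a log2 fold change of −5.92 (SE 1.09, edgeR adjusted p = 0.00473). Evx1, a streak gene downstream of BMP, fell from 109.9 and 52.1 to 10.1 and 14.9 with −2.66 (edgeR adjusted p = 0.0141). Of 22 mesoderm genes tested these 2 fell (1.72% of all genes did) and 2 rose (4.28% of all genes did). Those that rose were Snai1 and the organiser gene Gsc, which went from 11.3 and 29.8 to 145 and 113 with 2.65 (edgeR adjusted p = 0.0133). T was no longer called without replicate 1 of day 2 or replicate 2 of day 6 (highest edgeR adjusted p = 0.135), and Evx1 and Gsc without replicate 1 of day 2 or either day 6 library (0.165 and 0.183). T, Evx1 and Gsc had log2 fold changes of −8.74 to −3.10, −3.09 to −2.03 and 2.10 to 3.49 in these fits.

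In the endoderm list 5 of 18 tested genes rose (4.28% of all genes did) and none fell. The median log2 fold change was 1.38, or 1.10 with genes at 3 counts or fewer set to their bound. Foxa1, a pioneer factor of endoderm, had 9.07 and 11.2 normalised counts at day 2 and 104 and 188 at day 6, with a log2 fold change of 3.85 (SE 0.52, edgeR adjusted p = 0.000615). Gata6, which specifies primitive endoderm, had 12.5 and 36 and then 183 and 280.1, with 3.26 (SE 0.61, edgeR adjusted p = 0.00513), and Sox17 had 7.93 and 7.45 and then 60.5 and 75.8, with 3.13 (SE 0.58, edgeR adjusted p = 0.00473). The endocytic receptor gene Cubn had 7.93 and 1.24 and then 156 and 64.3 with 4.52 (edgeR adjusted p = 0.00301), and the last was Lama1. The yolk sac gene Ttr and the anterior endoderm gene Cer1 were at 0 in all 4 libraries, and Foxa2 was at 0 in both day 2 libraries and at 6.72 and 3.44 at day 6. Foxa1 and Cubn passed in each fit without 1 of the 4 libraries, with log2 fold changes of 3.75 to 6.33 for Cubn. Gata6 and Sox17 were no longer called without replicate 1 of day 2 (highest edgeR adjusted p = 0.103 and 0.0748). Gata6 had log2 fold changes of 2.68 to 4.21 in these fits.

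Of 24 neural genes 2 rose, against 4.28% of all genes. Sox1, an early neural plate factor, had 15.9 and 38.5 and then 171 and 148 normalised counts with 2.57 (edgeR adjusted p = 0.00966), and Tubb3, the neuronal tubulin, had 424 and 539 and then 1544 and 667 with 1.20 (edgeR adjusted p = 0.0454). Among the neuronal genes Neurog1, Neurog2, Neurod4 and Pax7, no library of the 4 exceeded 13.4 normalised counts. In the trophoblast list only Krt19 changed, falling from 835 and 595 to 178 and 216. No member of the blood and endothelium list passed the test, and of its most abundant genes Pecam1 had 707 and 668 and then 983 and 1061 normalised counts and Runx1 41.9 and 11.2 and then 131 and 65.4. Of the gonadal list Fst, an inhibitor of Activin, fell from 201 and 32.3 to 20.2 and 11.5 with −2.93 (edgeR adjusted p = 0.0414), with day 2 libraries that lay far apart. Sox1 was no longer called without replicate 1 of day 2 (highest edgeR adjusted p = 0.159), Tubb3 without either day 2 library or replicate 1 of day 6 (0.43), and Fst without replicate 1 of day 2 or either day 6 library (0.613). Sox1, Tubb3 and Fst had log2 fold changes of 2.04 to 3.33, 0.47 to 1.69 and −3.70 to −1.08 in these fits.

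Besides T and Fgf5, the 10 largest falls among called genes with a mean of 50 or more included Clca4a, Enpp2, Acta1, Wnt8a, Kis2, Vrtn and Fndc3c1. Acta1, the skeletal muscle actin, had 383 and 597 and then 60.5 and 18.4 normalised counts, with a log2 fold change of −3.70 (SE 0.59, edgeR adjusted p = 0.00182). Wnt8a, a Wnt ligand of the primitive streak, had 283 and 45.9 and then 21.8 and 9.18, with −3.47 (SE 0.83, edgeR adjusted p = 0.022). Enpp2, which encodes the lysophospholipase autotaxin, had 375 and 144 and then 16.8 and 20.7, with −3.76 (SE 0.47, edgeR adjusted p = 0.000332). For all of these but Acta1, replicate 1 was the higher of the day 2 libraries, as it was for T, Fgf5 and Fst. The log2 fold changes of the others named were −3.88 for the chloride channel regulator Clca4a, −3.30 for Kis2, −3.19 for Vrtn and −3.18 for Fndc3c1. Acta1, Enpp2, Clca4a, Vrtn and Fndc3c1 passed in each fit without 1 of the 4 libraries, with log2 fold changes of −4.73 to −3.01 for Acta1, −4.29 to −2.92 for Enpp2, −5.10 to −3.29 for Clca4a, −3.74 to −2.28 for Vrtn and −3.66 to −2.45 for Fndc3c1. Wnt8a and Kis2 were no longer called without replicate 1 of day 2 or either day 6 library (highest edgeR adjusted p = 0.405 and 0.097). Wnt8a had log2 fold changes of −4.25 to −1.64 in these fits.

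Single members passed in other lists, and their number stands beside the 4.28% of all genes that rose and the 1.72% that fell. Of 36 imprinted genes tested 2 rose and 1 fell. H19, a maternally expressed long RNA, had 15.9 and 23.6 normalised counts at day 2 and 605 and 243 at day 6, with a log2 fold change of 4.42 (SE 1.01, edgeR adjusted p = 0.0174). Its neighbour Igf2, a growth factor expressed from the other allele, had 911 and 1230.1 and then 5397 and 4064 with 2.15 (edgeR adjusted p = 0.0954) and did not pass. Rian, a long RNA of the Dlk1 domain, fell from 1665 and 1646 to 733 and 485 with −1.44 (edgeR adjusted p = 0.0358), and the decarboxylase gene Ddc rose with 1.70 (edgeR adjusted p = 0.0323). Among 19 CDK inhibitors and p53 targets, Cdkn2c, an inhibitor of CDK4 and CDK6, rose from 15.9 and 21.1 to 106 and 83.8 with 2.36 (edgeR adjusted p = 0.00425). In the same list Pmaip1, which encodes the death factor Noxa, rose with 1.43 (edgeR adjusted p = 0.0244), and Bbc3, which encodes Puma, fell with −0.91 (edgeR adjusted p = 0.0171). H19 and Ddc were no longer called without either day 2 library or replicate 1 of day 6 (highest edgeR adjusted p = 0.195 and 0.26), Rian and Pmaip1 without any 1 of the 4 libraries (0.246 and 0.169), Cdkn2c without replicate 1 of day 2 (0.0868), and Bbc3 without replicate 1 of day 2 or either day 6 library (0.232). H19 had log2 fold changes of 3.62 to 4.94 in these fits.

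Chac1, which degrades glutathione, fell with −1.72 (edgeR adjusted p = 0.043) as the only 1 of 20 genes of the amino acid and integrated stress response. Of 23 cholesterol synthesis genes only Hsd17b7 rose, with 1.05 (edgeR adjusted p = 0.0117). Chac1 was no longer called without replicate 2 of day 2 or either day 6 library (highest edgeR adjusted p = 0.351), and Hsd17b7 without either day 2 library or replicate 2 of day 6 (0.11). Chac1 had log2 fold changes of −2.26 to −0.85 in these fits.

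No member passed in 6 of the lists fixed for the description. These hold 16 BMP targets, 13 LIF and STAT3 targets, 14 repressors of germline genes, 25 cell cycle genes, 26 genes of hypoxia and glycolysis and 11 of blood and endothelium. Id1, a direct BMP target, had 1947 and 2266 normalised counts at day 2 and 2872 and 1339.9 at day 6, so that the libraries of day 6 lay on either side of those of day 2. Klf4, a LIF target and naive pluripotency factor, had 2748 and 1815 and then 4972 and 4353, with a log2 fold change of 1.04 (edgeR adjusted p = 0.0816). Among the most abundant members of these lists, the inhibitory Smad7 had 3901 and 3163 and then 3619 and 3511, and the naive factor Tfcp2l1, induced by LIF, had 5902 and 6201 and then 6767 and 8741. Mga, a repressor of meiotic genes, had 3635 and 4111 and then 2649.8 and 3995, and the histone demethylase gene Kdm5c had 7216 and 7282 and then 7025 and 8428. In the cell cycle list the topoisomerase gene Top2a had 9275 and 11825 and then 10477 and 12791 and the helicase gene Mcm2 8034 and 5969 and then 6549.8 and 4961, and of the glycolytic enzymes Aldoa had 25511 and 27553 and then 35243 and 33457 and Pkm 48593 and 37971 and then 44896 and 35941. None of these passed the test. A log2 fold change that does not pass the test does not show that a gene stayed the same.

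**Figure D5:**
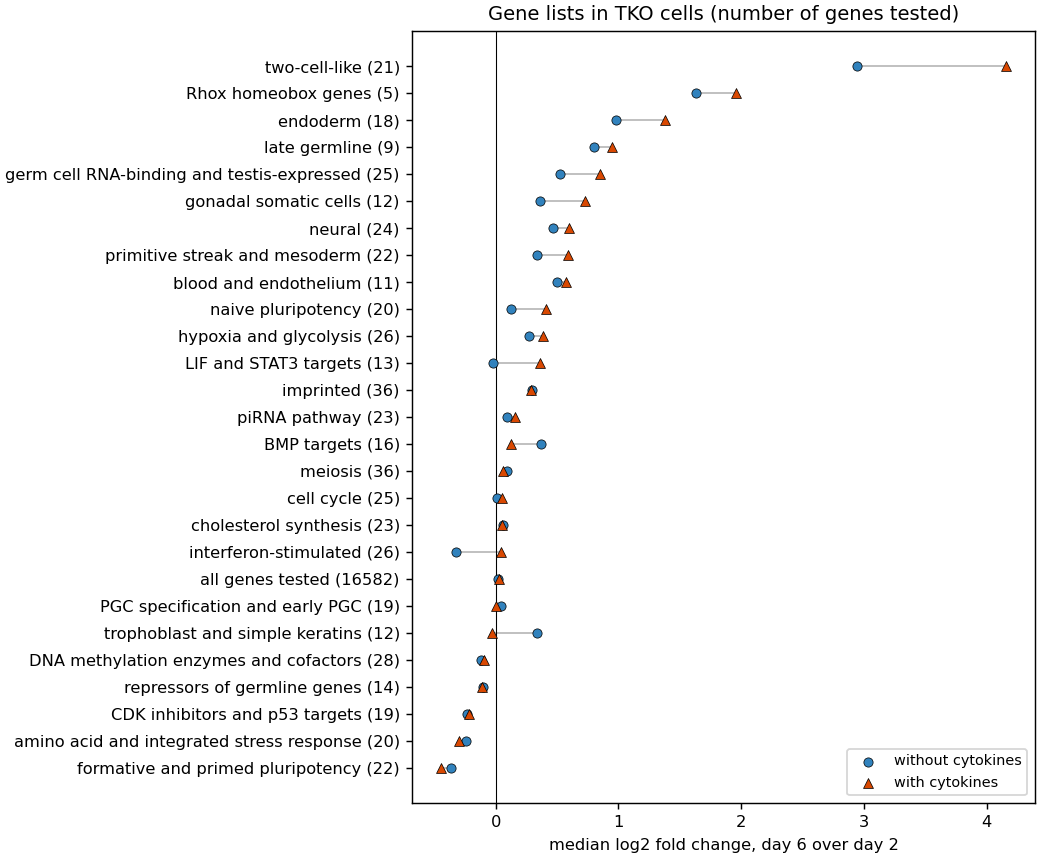
Median log2 fold change from day 2 to day 6 in TKO cells for 26 gene lists and for all genes tested, with cytokines and without. With cytokines the list of 2-cell-stage genes had a median of 4.16 and all genes 0.03.

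To see whether these changes needed the cytokines, the same days were compared in TKO cells kept without them, which share no library with the cells described above. There 50 genes rose beyond 2 (0.302% of those tested) and 6 fell, and 70 rose at any size (0.422%). These 56 genes became 2 and 5 without replicate 1 or 2 of day 2 and 28 and 27 without replicate 1 or 2 of day 6. Of the 371 genes that rose with cytokines 46 were among these 50, which is 12.4% of the 371 and 92% of the 50. A positive log2 fold change without cytokines was found for 363 of the 371 (97.8%), against 52.5% of all genes, and their median there was 1.68, against 3.33 with cytokines. Of the 63 that fell 61 were negative without cytokines (96.8%, against 47.5% of all genes), with a median of −1.17 against −2.81, and 5 were among the 6 called there. The 371 and 63 genes were chosen for large changes with cytokines, which by itself makes their medians larger in size there. The gap between these medians therefore does not measure an effect of the cytokines.

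The difference between both courses was tested as an interaction of time with cytokines. By edgeR no gene passed at an adjusted p below 0.05 (0% of 16582), with 717 genes at an unadjusted p below 0.05, and DESeq2 gave 3 genes at that adjusted p with 700 unadjusted. The larger number of calls with cytokines is therefore not shown to be a difference in response for any gene by edgeR. Zscan4d had 120.4 and 129 normalised counts at day 2 and 1078 and 1405 at day 6 without cytokines, a log2 fold change of 3.32 (SE 0.36, edgeR adjusted p = 0.00149), and an interaction of 0.96 (SE 0.49, edgeR adjusted p = 1).

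Without cytokines 12 of 21 tested genes of the 2-cell-stage list rose, with a median log2 fold change of 2.95. Dux had 7.26 and 3.61 and then 24.8 and 37.9 normalised counts there, with 2.48 (edgeR adjusted p = 0.155), and Nelfa had 901 and 840.0 and then 1929.7 and 2093, with 1.21 (edgeR adjusted p = 0.000647). Dazl had 157 and 147 and then 844 and 650.0, with 2.31 (edgeR adjusted p = 0.0409). Dppa3, with 105 and 58.9 and then 422 and 317, passed there, unlike with cytokines (2.17, edgeR adjusted p = 0.0259). The other genes called as rising beyond 2 without cytokines alone were Cer1, Cxcr4 and Igf2, and none of these differences passed the interaction test. Epithelial genes had a median of −0.35 without cytokines, and 1 of the 33 fell there, Grhl2 with −1.22 (edgeR adjusted p = 0.0178). T and Acta1 had the lowest interactions among the named genes. Without cytokines T had 76.8 and 148 and then 38.8 and 29 normalised counts, an interaction of −4.21 (SE 1.39, edgeR adjusted p = 1), and Acta1 had 654 and 1288 and then 1017 and 1385, an interaction of −4.02 (SE 0.75, edgeR adjusted p = 0.512).

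Wild-type cells on their way from EpiLCs to sorted day 6 PGCLCs, again with no library in common, had 1257 genes rising beyond 2 (7.58%) and 657 falling (3.96%). Of the 371 genes 120 were among the former, 32.3% of the 371 and 9.55% of the 1257, and 284 had a positive log2 fold change (76.5%, against 8786 of all 16582 genes tested). Of the 63 genes 29 were among the latter, 46% of the 63 and 4.41% of the 657, and 54 were negative (85.7%, against 46.4% of all genes). Germline genes that rose in both included Dazl, with 2.81 in wild-type cells (edgeR adjusted p = 0.000354), Stra8, with 5.33 (edgeR adjusted p = 8.23e-06), and Spesp1, with 2.82 (edgeR adjusted p = 0.0015). Dpep3, Sohlh2 and Rhox1 rose in both as well, with 3.51 (edgeR adjusted p = 0.00119), 1.76 (edgeR adjusted p = 0.000168) and 1.66 (edgeR adjusted p = 0.0253) in wild-type cells. Fgf5 and Dnmt3b fell in both, with −6.08 (edgeR adjusted p = 2.64e-06) and −6.57 (edgeR adjusted p = 1.01e-08) in wild-type cells. Tex19.2 and Rhox5, which rose in TKO cells, did not pass in wild-type cells, with −0.46 (edgeR adjusted p = 0.464) and 0.21 (edgeR adjusted p = 0.565). Rhox5 had 905 and 1160 normalised counts in wild-type EpiLCs and 1364 and 961 in day 6 PGCLCs, above both TKO day 6 libraries.

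In wild-type cells 10 of the 21 genes of the 2-cell-stage list rose too (22.4% of all genes did), 8 of them beyond 2 (7.58%), and 1 fell, with a median log2 fold change of 1.97. Dux rose from 0 and 0.556 normalised counts in wild-type EpiLCs to 4.17 and 8.37 in day 6 PGCLCs (edgeR adjusted p = 0.0106) and Zfp352 from 0 in both to 8.34 and 7.08 (edgeR adjusted p = 0.00897), levels under both TKO day 6 libraries. Of 5 Zscan4 copies only Zscan4a rose, from 16.1 and 11.1 to 21.6 and 42.5 with 1.36 (edgeR adjusted p = 0.0486). Zscan4d had 20.9 and 16.1 normalised counts in wild-type EpiLCs and 9.04 and 14.8 in day 6 PGCLCs, with a log2 fold change of −0.53 (edgeR adjusted p = 0.417). Usp17le had 11.3 and 13.3 and then 66.1 and 62.4, with 2.37 (edgeR adjusted p = 3.67e-05), and both of its wild-type day 6 libraries were under both TKO day 2 libraries. PGC specification genes had the opposite weight: 17 of 19 rose in wild-type cells and none in TKO cells between day 2 and day 6, where Prdm14 had 3.22 and 0.556 in wild-type EpiLCs, 1295 and 1046 in wild-type PGCLCs and 817 and 962 in TKO cells by day 2. The wild-type interval starts at EpiLCs and the TKO interval at day 2, so these values stand side by side and the difference between them was not tested.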

How the data were processed

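Bulk RNA-seq of rRNA-depleted, strand-marked libraries was measured in 18 samples, 2 for each of 9 conditions. Per the study, the authors trimmed reads (Trim Galore 0.5.0, cutadapt 1.16), aligned them with STAR 2.7.1a to mm10 and deposited raw counts per RefSeq gene from featureCounts (Subread 1.5.2), run without strand information; fragments with several mapping positions, or on more than 1 gene, were not counted. Counts of overlapping or antisense genes can therefore not be told apart. Another 33 rows name no gene and were left out, and no per-sample column was left unused (0). Coordinates and promoters are RefSeq's for GRCm38.p6, the assembly behind mm10.

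Counts were tested with edgeR 4.0.16 (R 4.3.3) in 1 model of 9 group means over all 18 libraries, with TMM factors, filterByExpr and glmQLFTest; 16582 of 25239 genes passed the filter. Contrasts were day 6 minus day 2 in TKO cells with cytokines, the same without, their difference, and wild-type day 6 PGCLCs minus EpiLCs. SE is approximate, the absolute log2 fold change over the root of F. The biological coefficient of variation (root of edgeR's common dispersion) was 0.222. Intervals from counts cover counting error only, and a count of 0 allows up to 3 counts. The fit was tested on simulated data.

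The samples described and the gene lists were chosen with earlier results of these data known, and 13 gene families were added after values were seen. Genes were named by rule: the Tet genes, genes of the study's RNA-seq text, the 10 highest and 10 lowest called genes with a mean of 50 or more, and up to 4 changed members per list (otherwise its 2 most abundant). Other names were chosen after their values were seen. Some genes that the rule or lists name are not reported here.

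Alternatives were DESeq2 1.42.0, other scalings and filters, leaving out Rn45s or each library, fitting only the libraries compared, and the replicate number as a block.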

Additional observations from a re-analysis of the deposited data

How the results depend on the processing

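With cytokines the 434 genes called beyond 2 became 202 at an adjusted p below 0.01, 813 with a log2 fold change beyond 1, and 132 to 297 with 1 library left out. The lowest count came without replicate 1 of day 2, and of the 110 genes rising and 22 falling in that fit 107 and 20 were among the 371 and 63. DESeq2 gave 479, no filter 558, a mean CPM of at least 1 gave 321 and a fit of only the libraries compared 502. Without cytokines the 56 genes became 97 with DESeq2, 116 without a filter, 191 in a fit of only the libraries compared, 24 at an adjusted p below 0.01 and 2 to 28 with 1 library left out. The interaction had 0 genes by edgeR, 3 with DESeq2, 5 without a filter and 4 in a fit of only the libraries compared. For wild-type cells the 1914 genes became 4396 with a log2 fold change beyond 1, and under scaling by library size alone 79.5% of the calls were rising in place of 65.7%; with 1 library left out there were 1518 to 1713. Of the 21 tested 2-cell-stage genes 17 rose in every alternative except a mean CPM of at least 1 (16) and the fit without replicate 1 of day 2 (14). Same-numbered replicates of day 2 and day 6 correlated in their deviations at 0.158 with and 0.166 without cytokines, over 2 pairs each, and the labels do not state a pairing. With the replicate number as a block, 409 genes were called with cytokines, 56 without and 1907 in wild-type cells, and the block moved no count by over 1.5 times. No gene whose log2 fold change with cytokines is printed turned its sign under these alternatives. Of the 88 of them that passed, 47 were lost without replicate 1 of day 2. The cause of these shifts was not tested. With 2 libraries per day and 11741889 to 16386003 counts each, small changes and genes near 3 counts were out of reach.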

Other observations

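Hox genes, which pattern the body axis, were looked at after their values were seen. Of 39 counted, 30 were tested, of which 6 rose (4.28% of all genes did) and none fell, with a median log2 fold change of 1.45, or 1.25 with genes at 3 counts or fewer set to their bound. Hoxa10 had 7.93 and 11.2 normalised counts at day 2 with cytokines and 80.7 and 71.2 normalised counts at day 6 (log2 fold change 2.98, edgeR adjusted p = 0.0273), and it was no longer called without any 1 of these 4 libraries (highest edgeR adjusted p = 0.235). Hoxd13 went from 9.07 and 23.6 to 70.6 and 97.6. Both were low at day 2.

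Among 7 Y chromosome genes tested, a family also chosen after values were seen, 2 rose, against 4.28% of all genes. Ddx3y, an RNA helicase gene, went from 17.0 and 12.4 normalised counts to 38.6 and 94.1 in TKO cells with cytokines. It had 618 and 840 in wild-type day 6 PGCLCs, far above all 4 TKO libraries. The sum over the family differed less, with 1026 and 1277 at day 2, 1161 and 1643 at day 6 and 1941 and 2457 in wild-type day 6 PGCLCs. Without cytokines the day 6 sums were 1782 and 1542 in TKO and 1587 and 1391 in wild-type aggregates.

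Col3a1, a collagen of connective tissue, had 18.1 and 12.4 normalised counts at day 2 but 692 and 89.6 at day 6, with replicate 1 of day 6 far above replicate 2.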
